A study of Mus musculus with 2 samples.

Results

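The genes described here encode the machinery of oxidative phosphorylation (OXPHOS). They were taken by symbol, as every gene whose name starts with Nduf, Uqcr, Atp5, MT- or Cox followed by a digit in either count table, without the symbols that hold -ps. The rule gave 134 of 21888 listed genes. Of these, 97 lie in the nucleus: 7 core and 30 accessory subunits of complex I, 8 subunits of complex III, 17 of complex IV, 16 of ATP synthase and 19 assembly or related factors. The other 37 lie on the mitochondrial genome, as 13 mRNAs, 2 ribosomal RNAs and 22 tRNAs. By table, 127 members were listed for the fungiform papillae and 131 for the circumvallate papilla. The prefixes miss the SDH subunits of complex II, cytochrome c and Cyc1, which are given separately below.

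The cells came from adult mice of the α-gustducin-GFP strain on a C57BL/6J background, in which green fluorescence marks cells that make α-gustducin, a G protein subunit of taste transduction whose gene is Gnat3. GFP-positive, 7-AAD-negative cells were sorted from the fungiform papillae at the tip of the tongue (FP) and the circumvallate papilla at its back (CV), and each papilla gave 1 library. Both groups share the reporter and the sort, and the labels give neither the number of animals nor their sex. There were 29 FP and 61 CV barcodes, and 0 barcode numbers occurred in both libraries. Barcodes with more than 500 genes and Gnat3 above 0.9 on ln(1 + counts per 10000) were kept, which left 21 FP cells (22646953 counts, 193718 to 3190340 per cell, median 1141644) and 32 CV cells (29535917 counts, 32726 to 3447628 per cell, median 543963). With 1 library per papilla there is no replicate check and no test between papillae. Cells are not replicates of a papilla, so every FP and CV value below describes these 2 libraries. Intervals are 95% and cover counting error only.

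Complex I takes electrons from NADH, complex III passes them from ubiquinol to cytochrome c, and complex IV hands them to oxygen. These complexes pump protons, and ATP synthase uses the proton gradient to make ATP. The mitochondrial genome supplies a few hydrophobic subunits of complexes I, III and IV and of ATP synthase, and nuclear genes supply all other subunits. The taste cells that carry α-gustducin are type II cells, which detect sweet, umami or bitter compounds and signal to nerve fibres with ATP released through a channel beside large mitochondria.

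Some members share sequence, which limits how far their counts can be told apart. The coding frames of mt-Atp8 and mt-Atp6 overlap by 43 bases, those of mt-Nd4l and mt-Nd4 by 7, and mt-Nd6 lies antisense to the end of mt-Nd5 with 14 shared bases. The stretches are printed with capitals on the shared bases, from the deposited build mm10 and the GENCODE transcripts, on the + strand, at chrM:7907-7989, chrM:10147-10193 and chrM:13532-13565.
mt-Atp8 and mt-Atp6: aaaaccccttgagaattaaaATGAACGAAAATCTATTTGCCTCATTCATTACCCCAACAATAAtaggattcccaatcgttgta
mt-Nd4l and mt-Nd4: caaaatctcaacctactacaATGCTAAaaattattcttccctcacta
mt-Nd5 and mt-Nd6: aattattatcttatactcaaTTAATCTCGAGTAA

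Atp5g1, Atp5g2 and Atp5g3 encode the same mature subunit c of the ATP synthase ring, and Ndufa4 and Ndufa4l2 encode related complex IV proteins. Their last 60 coding bases show how far reads can separate such copies, with capitals where the compared genes differ. The Atp5g genes differ at 17 of the 60 positions, and Ndufa4 and Ndufa4l2 at 19.
Atp5g1: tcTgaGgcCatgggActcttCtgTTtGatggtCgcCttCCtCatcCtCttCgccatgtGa
Atp5g2: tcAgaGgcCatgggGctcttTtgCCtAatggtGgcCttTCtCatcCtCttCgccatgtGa
Atp5g3: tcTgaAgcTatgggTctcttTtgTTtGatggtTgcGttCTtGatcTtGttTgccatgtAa
Ndufa4: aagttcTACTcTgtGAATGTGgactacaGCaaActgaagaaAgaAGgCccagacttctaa
Ndufa4l2: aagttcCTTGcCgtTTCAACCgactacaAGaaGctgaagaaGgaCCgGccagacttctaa
The longest run that any pair shared in its transcripts was 21 bases for Atp5g1 and Atp5g2 and 28 bases for Ndufa4 and Ndufa4l2. Ndufb4c is different: all 390 bases of its transcript occur in that of Ndufb4, so the counts of both (118 and 72.8 CPM in FP, 80.6 and 49.6 CPM in CV) are uncertain as a split. No protein-coding transcript of Ndufb4c was found in the annotation. It is counted among the accessory subunits of complex I by its symbol only.

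Nuclear OXPHOS genes are known targets of the factors NRF1, GABP and YY1. RefSeq promoter windows of 300 bases (GRCm38.p6, 250 before to 50 after the start) matched 80 of the 97 nuclear members, with 86 windows. On either strand, the letters GCGCATGCG of the NRF1 site occurred in 11.6% of these windows and in 1.75% of all 32851 windows. The GABP letters CCGGAAG occurred in 25.6% against 8.86%, and the YY1 letters AAGATGGCG in 10.5% against 1.403%. The short core ACGTG, which the hypoxia-inducible factors read, occurred in 23.3% against 19.6%. The 6 members whose NRF1 letters and flanking bases both lie wholly upstream of the start are printed. Their levels in the 2 papillae ranged from a higher value in FP to a far higher value in CV. The letters of Ndufa8 also end before the start, but its flanking bases cross the start, so it is not printed. The NRF1 letters, or their reverse complement, are in capitals, and each window is read along the gene.
Atp5g2, chr15:102671066-102671104, minus strand: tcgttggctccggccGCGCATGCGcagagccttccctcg
Atp5k, chr5:108434426-108434464, minus strand: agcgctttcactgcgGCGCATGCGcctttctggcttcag
Atp5l, chr9:44920960-44920992, minus strand: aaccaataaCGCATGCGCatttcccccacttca
Cox6a1, chr5:115349097-115349135, minus strand: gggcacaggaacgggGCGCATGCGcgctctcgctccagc
Ndufa11, chr17:56717687-56717725, plus strand: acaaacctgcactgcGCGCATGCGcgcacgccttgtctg
Ndufaf4, chr4:24897955-24897993, plus strand: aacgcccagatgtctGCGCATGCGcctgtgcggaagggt
Over the 10 members that hold these letters anywhere in the window, the log2 difference of FP over CV (defined below) ran from -2.29 (Ndufaf4) to 1.01 (Ndufaf5), with a median of 0.18. A letter match is no evidence of binding.

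Over all 90 barcodes, the nuclear and the mitochondrial genes did not keep a fixed ratio. The mitochondrial mRNAs gave from 1.37 to 28737 counts for each nuclear OXPHOS count, with a median of 8.22. No barcode fell between 20 and 40. In FP the barcodes nearest to this gap stood at 9.19 and 45.4, and in CV at 19.9 and 43.9. Above the gap lay 5 of 29 FP and 29 of 61 CV barcodes, and among kept cells 4 of 21 FP and 6 of 32 CV. Ratios of 1000 or more occurred in 10 CV barcodes, of which 0 were kept, and in 0 FP barcodes. The 2 highest ratios rested on 6 and 9 nuclear OXPHOS counts, so they are poorly measured.

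**Figure D1:**
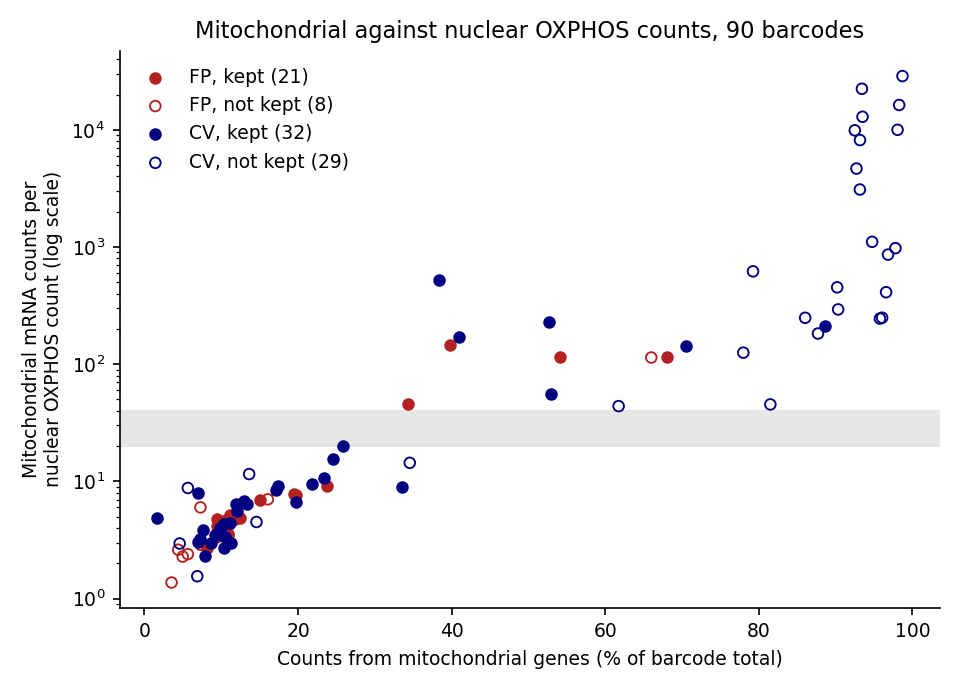
Each point is a barcode. The horizontal axis gives counts of mitochondrial genes as a percentage of its total, and the vertical axis (log scale) gives mitochondrial mRNA counts per nuclear OXPHOS count. Filled points are kept cells, open points are other barcodes, FP is red and CV is blue, and the grey band from 20 to 40 holds no point.

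Nuclear OXPHOS counts were also taken as a share of counts outside mitochondrial and ribosomal RNA genes, called the outside share. In the 42 barcodes with under 15% mitochondrial counts, the median outside share was 2.43% (0.565 to 4.76). In the 12 barcodes at 15 to 30% it was 2.52% (1.46 to 3.24). So the outside share was near the same level in both bands, while the median ratio of mitochondrial to nuclear counts went from 3.77 to 8.79.

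The 9 barcodes with 30 to 60% mitochondrial counts had a median outside share of 0.914%, although the range was wide (0.112 to 4.86). Their cytosolic ribosomal protein genes, another large class of nuclear housekeeping genes, had a median of 3.80%, against 5.84% in the barcodes under 15%. Malat1, a long RNA that stays in the nucleus, had a median of 16535 CPM of outside counts in these 9 barcodes, against 563 CPM in the barcodes under 15%. The median ribosomal protein share was thus lower here together with the OXPHOS share, while the median Malat1 level was higher. Their part in the lower OXPHOS share was not tested.

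The 27 barcodes with over 60% mitochondrial counts, 25 of them from CV, had a median outside share of 1.65%, from 0.0589 to 8.99. They held few other counts, with a median of 706 genes and of 13 nuclear members detected, and their median Malat1 level was 227 CPM of outside counts. Across all 90 barcodes the Spearman correlation of the mitochondrial share with the outside share was -0.12, across the 53 kept cells it was -0.28, and across the 42 kept cells with under 30% mitochondrial counts it was 0.02. In the 21 kept FP cells it was -0.38 (Pearson -0.69), and in the 32 kept CV cells -0.20 (Pearson -0.19). These barcodes share 2 libraries and differ in depth, so all these values are descriptions. The mitochondrial share itself had a Spearman correlation of -0.55 with the number of genes over the 90 barcodes.

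**Figure D2:**
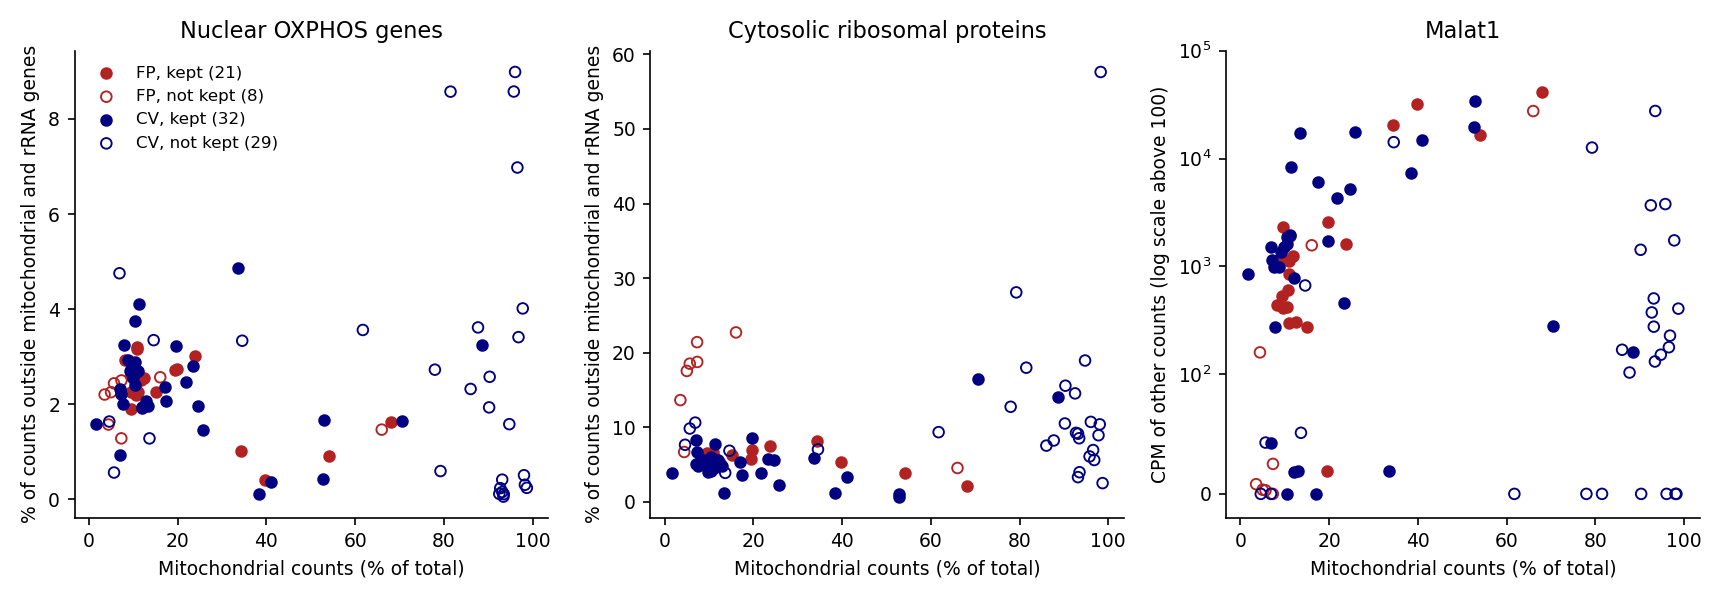
Each point is a barcode, with the mitochondrial share of its counts on the horizontal axes. The vertical axes give nuclear OXPHOS genes and cytosolic ribosomal protein genes as a percentage of counts outside mitochondrial and ribosomal RNA genes, and Malat1 as CPM of the same counts (log scale above 100). Nuclear OXPHOS shares have medians of 2.43% and 2.52% in the bands below a mitochondrial share of 30% and scatter from 0.0589 to 8.99% above 60%.

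In FP, 7 barcodes carried over 10000 CPM of lingual keratinocyte markers and were not kept, since they lacked Gnat3 at the required level. Their outside share of nuclear OXPHOS counts was 2.26% (1.28 to 2.57), within the range of the kept FP cells. Their ribosomal protein share was 18.5%, against 5.86% in the kept FP cells. Their median ratio of mitochondrial to nuclear counts was 2.61 (1.37 to 7.03), against 4.77 in the kept FP cells, and both ranges overlap. These keratinocyte-rich barcodes thus had a nuclear OXPHOS share like that of the taste cells with a lower median mitochondrial ratio, in 1 library and with no test.

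In kept cells, the median ratio of mitochondrial to nuclear counts was 4.77 in FP (2.72 to 145) and 6.57 in CV (2.32 to 526). A limit of 30% on mitochondrial counts, which by its nature leaves out high ratios, gave medians of 4.70 in FP (2.72 to 9.19, 17 cells) and 4.89 in CV (2.32 to 19.9, 25 cells). The outside share in the same cells was 2.64% in FP (1.91 to 3.20) and 2.36% in CV (0.944 to 4.11). In both measures the FP range lay within the CV range, which was wider. The CV median of 4.89 is the ratio of 1 kept cell in which 79.0% of counts came from nuclear ribosomal RNA genes. That cell had 1.63% mitochondrial counts, a share of a total that is mostly ribosomal RNA. Kept cells with a ratio of 20 or more gave 17.6% of the mitochondrial mRNA counts in FP and 19.8% in CV, but 1.18% and 0.768% of the nuclear OXPHOS counts.

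Pooled over kept cells, nuclear OXPHOS genes took 21976 CPM in FP (21915 to 22037) and 21176 CPM in CV (21124 to 21229), a log2 difference of 0.05. The mitochondrial mRNAs took 119052 CPM in FP and 124705 CPM in CV, a log2 difference of -0.07, which became 0.00035 with cells under 30% mitochondrial counts. It was -0.051 with cells of at most 60% mitochondrial counts and -0.029 with cells of a ratio under 20. All 3 limits act on the measure itself. Type II markers were within 2-fold for 7 of 7 genes, with 21013 CPM summed in FP and 17974 CPM in CV. One of the 7 is Gnat3 (5223 CPM in FP, 4372 in CV), by which the cells of both libraries were kept. Its closeness and its part of the sums are therefore no separate sign of like cells. Keratinocyte markers summed to 163 CPM in FP (90.9 to 538 per cell) and 4.91 CPM in CV (0 to 917 per cell), with Krtdap at 0 in CV. Type III taste cell markers summed to 2.16 CPM in FP and 41.4 in CV, endothelial and fibroblast markers to 1.46 and 37.0, blood and immune markers to 1.32 and 14.1, and muscle markers to 0 and 0.24 CPM. Their part in the differences below was not tested.

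Single members were compared on log2(CPM + 10), with 2-fold taken as the limit for calling a difference, among genes that reached 10 CPM in FP or in CV. Of the 97 nuclear members, 92 passed that level: 4 were higher in FP by 2-fold or more, 7 were higher in CV by that much, and 81 were within 2-fold (88.0%). Over all 10918 genes at that level, 17% were called higher in FP, 21% were called higher in CV, and 62% were within 2-fold. The median log2 difference was 0.07 over the nuclear members and -0.05 over all genes. At 100 CPM or more, 74 members passed, of which 1 was higher in FP, 3 were higher in CV and 70 were within 2-fold (94.6%), where all 2579 genes gave 14.4%, 15.1% and 70.5%. Of 75 cytosolic ribosomal protein genes at this level, 73 were within 2-fold. With pooled counts, a larger share of nuclear OXPHOS genes than of all genes was thus within 2-fold. With the mean of each cell's CPM in place of pooled counts, 63 of 91 members (69.2%) and 55% of all genes were within 2-fold, and 18 members were higher in FP (19.8%, against 25.5% of all genes) and 10 in CV (11%, against 19.5%).

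**Figure D3:**
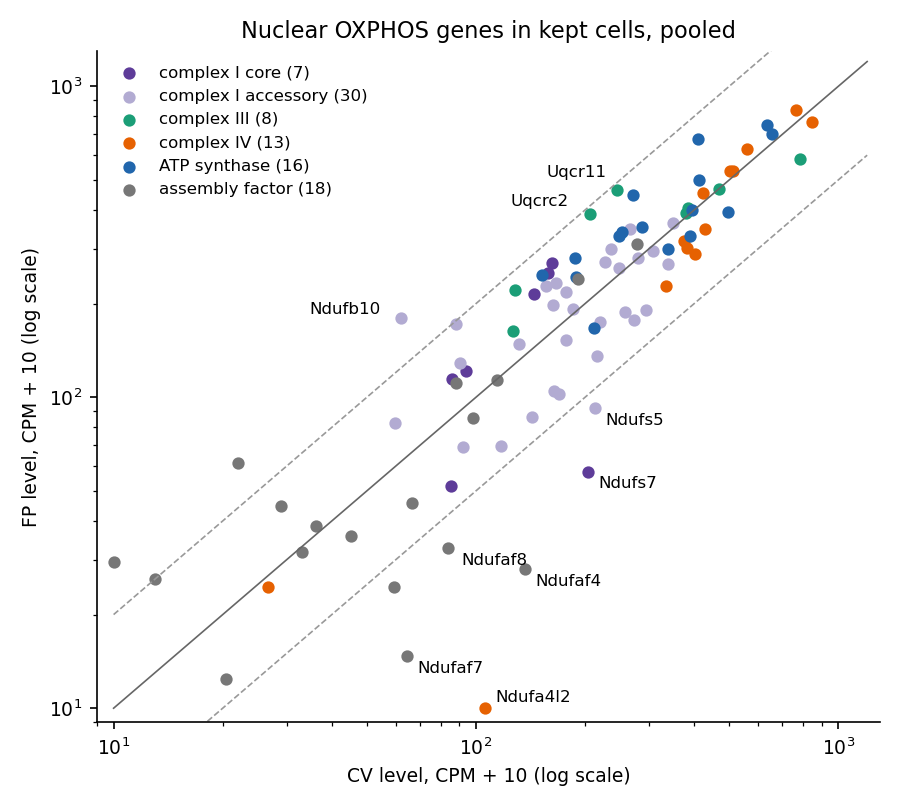
Each of the 92 points is a nuclear member that reached 10 CPM in FP or in CV. The axes give its pooled level over 32 kept CV cells (horizontal) and 21 kept FP cells (vertical) as CPM + 10, both on log scales. The solid line marks equal levels, the dashed lines mark 2-fold, and most subunits lie between the dashed lines while 7 of the 11 points outside are assembly factors.

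The 7 core subunits of complex I carry its flavin and iron-sulfur centres. Their counts summed to 1011 CPM in FP against 863 CPM in CV, and 6 of the 7 were within 2-fold. Ndufv2 (260 CPM in FP, 152 in CV, log2 0.74) and Ndufs8 (242 and 148 CPM, log2 0.67) were the members of highest mean level, both with the higher value in FP. Ndufs7, which holds the last iron-sulfur cluster before ubiquinone, went the other way, at 47.6 CPM in FP and 193 CPM in CV (log2 -1.82), a ratio of CPM of 4.06 (3.81 to 4.34). Of 21 FP cells 10 had a count for it, as did 21 of 32 CV cells, and it reached 50 CPM in 3 FP and 13 CV cells. With every cell thinned to 71770 counts, which leaves out 6 CV cells, it was detected in 3 of 21 FP and 16 of 26 CV cells. FP was thus the lower library for Ndufs7 and the higher for the iron-sulfur subunits Ndufs8 and Ndufv2, and cells of both papillae overlapped. With no limit on Gnat3 the log2 difference of Ndufs7 was -0.93, which ends the call.

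Accessory subunits surround that core and support its assembly and stability. They summed to 5410 CPM in FP and 5569 CPM in CV, with a median log2 difference of 0.03 over 30 members, of which 28 were within 2-fold. Ndufb8 (353 CPM in FP, 340 in CV) and Ndufb9 (336 and 256 CPM) had the highest mean levels of the group. Ndufb10, a subunit of the membrane arm, was the 1 accessory subunit called higher in FP, at 170 CPM against 52.1 CPM (log2 1.53, and 1.44 without the highest cell of each library), a ratio of CPM of 3.25 (3.07 to 3.45). It was detected in 15 FP and 15 CV cells, and 9 FP and 5 CV cells reached 50 CPM, so cells of both libraries overlapped. With no limit on Gnat3 the log2 difference was 0.87, which ends the call. Ndufa10 lay just inside 2-fold, at 162 CPM in FP and 78.0 CPM in CV (log2 0.96). Ndufs5, a small subunit on the intermembrane side, was the 1 called higher in CV, at 82.4 CPM in FP and 203 CPM in CV (log2 -1.20). Of 21 FP cells 7 reached 50 CPM for it, against 17 of the 32 from CV. Without the run of adjoining CV barcode numbers its difference was -0.99997, at the limit of the call.

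Complex III members were all within 2-fold, with a sum of 3007 CPM in FP against 2640 CPM in CV and a median log2 difference of 0.23 over the 8. Uqcrh (575 CPM in FP, 771 in CV), the hinge protein beside cytochrome c1, and the small subunit Uqcr10 (458 and 459 CPM) had the highest mean levels. The other 3 named members lay towards FP. Uqcr11 stood at 455 CPM in FP and 235 CPM in CV (log2 0.92). The core protein Uqcrc2 stood at 378 and 196 CPM (log2 0.91), and 1.07 without the highest cell of each library. Uqcrfs1, the Rieske iron-sulfur protein that takes electrons from ubiquinol, stood at 211 and 118 CPM (log2 0.79). None of these differences reached 2-fold with the counts of all kept cells pooled, but with the mean of each cell's CPM that of Uqcrc2 was 1.35.

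Complex IV subunits from the nucleus summed to 5139 CPM in FP and 5525 CPM in CV, with a median log2 difference of -0.14 over the 13 members that passed the level, and 12 were within 2-fold. Cox6c (830 CPM in FP, 752 in CV) and Cox8a (756 and 833 CPM) had the highest mean levels. Several complex IV subunits have a common form and a form restricted to certain tissues. Per kilobase of annotated exon, Cox4i1 stood at 398 CPM in FP and 355 in CV, while its lung form Cox4i2 stood at 0 and 0.86. Cox7a2 stood at 356 and 443 CPM per kilobase, and the muscle form Cox7a1 at 27.2 and 31.01. Cox8a stood at 1221 and 1346 CPM per kilobase, and the muscle form Cox8b at 0 in both, which allows 0.132 CPM in FP and 0.102 CPM in CV at 3 counts. The common forms carried nearly all counts in both papillae.

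The testis forms were at the floor in kept cells but not in every barcode. Cox6b1 stood at 523 and 501 CPM in FP and CV, and Cox6b2 had 0 counts in the kept cells of either library, with 152 counts in 1 FP barcode that was not kept. Cox7b stood at 293 and 371 CPM, while Cox7b2 stood at 0 and 0.10 CPM, with 683 counts (167 CPM) in 1 CV barcode that was not kept. Each of these signals belongs to a single barcode. Cox6a1, the common form of that subunit, stood at 523 CPM in FP and 491 CPM in CV, with a log2 difference of 0.09.

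Ndufa4 and Ndufa4l2 differed most among the isoform pairs. Ndufa4, which sits in complex IV despite its name, stood at 278 CPM in FP and 392 CPM in CV (log2 -0.48). Ndufa4l2, a related gene that hypoxia is known to induce, had 0 counts in all 21 kept FP cells and 2828 counts (95.8 CPM) in CV, at least 723-fold higher when the pooled FP cells are set at the floor of 3 counts. It was detected in 13 of 32 CV cells, of which 5 reached 50 CPM and 1 gave 50.5% of the counts. Without the highest cell of each library the log2 difference was -2.62, against -3.40 with it. In the FP barcodes that were not kept it also had 0 counts. The endothelial and fibroblast marker list, which was also higher in CV, rested on Pecam1, at 0 CPM in FP and 36.3 CPM in CV in 6 cells.

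ATP synthase members were all within 2-fold and summed to 6302 CPM in FP and 5366 CPM in CV, with a median log2 difference of 0.29 over the 16. Atp5e (742 CPM in FP, 623 in CV), the small subunit of the central stalk, and Atp5b (691 and 646 CPM), the catalytic subunit, had the highest mean levels of the group. The 3 genes for subunit c all had the higher value in FP. Atp5g2 stood at 438 CPM in FP and 261 in CV (log2 0.73), Atp5g1 at 271 and 178 (log2 0.58), and Atp5g3 at 331 and 243 (log2 0.43). Per kilobase, their order was Atp5g2, Atp5g3 and Atp5g1 in both libraries, at 262, 152 and 55.2 CPM in FP and 156, 111 and 36.2 CPM in CV. By CPM the order was the same. The lengths are merged over annotated transcripts, so the size of the gaps per kilobase depends on the annotation.

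Assembly and related factors were the group with the most calls in proportion: of 18 that passed the level, 3 were called higher in FP, 4 were called higher in CV, and 11 were within 2-fold (61.1%, close to the 62% of all genes). Summed over 19 genes, they took 1107 CPM in FP against 1214 CPM in CV, and most were seen in a minority of cells. Cox7a2l (302 CPM in FP, 269 in CV) and the copper chaperone Cox17 (229 and 182 CPM) had the highest mean levels and were within 2-fold. Cox7a2l is grouped here as a factor for supercomplexes of complexes III and IV, and its allele in these mice was not examined.

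The complex I assembly factors Ndufaf4, Ndufaf7 and Ndufaf8 were called higher in CV. Ndufaf4 stood at 17.9 CPM in FP and 126 CPM in CV (log2 -2.29), a ratio of CPM of 7.04 (6.36 to 7.82), with 50 CPM reached in 1 of 21 FP and 8 of 32 CV cells. Ndufaf7, a mitochondrial methyltransferase, stood at 4.68 and 54.4 CPM (log2 -2.13), with 50 CPM reached in 0 FP and 4 CV cells. Ndufaf8 stood at 22.7 and 73.9 CPM (log2 -1.36), with 50 CPM reached in 2 FP and 5 CV cells. All 3 stayed past 2-fold without the highest cell of each library, at -2.96, -1.56 and -1.83. Ndufaf8 is the partner of Ndufaf5, and Ndufaf5 went the other way, at 16.1 CPM in FP and 2.98 CPM in CV (log2 1.01), but in 5 cells of each library and with 0.74 without the highest cells.

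Cox18, Cox10, Ndufaf5 and Atp5s were named after their values were seen, as the remaining calls. Cox10, which acts in making the haem of complex IV, stood at 51.3 CPM in FP and 12.02 CPM in CV (log2 1.48), from 5 FP and 4 CV cells. Cox18 stood at 19.4 and 0.03 CPM (log2 1.55), but 99.8% of its FP counts came from 1 cell, and the log2 difference fell to 0.01 when the highest cells were left out. Atp5s stood at 14.6 and 49.3 CPM (log2 -1.27), from 3 FP and 6 CV cells. With no limit on Gnat3, Cox18 was at 0.07 and Ndufaf5 at 0.73, and with the mean of each cell's CPM, Atp5s was at -0.40, so these 3 calls ended there. All 4 calls rested on few cells.

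**Figure D4:**
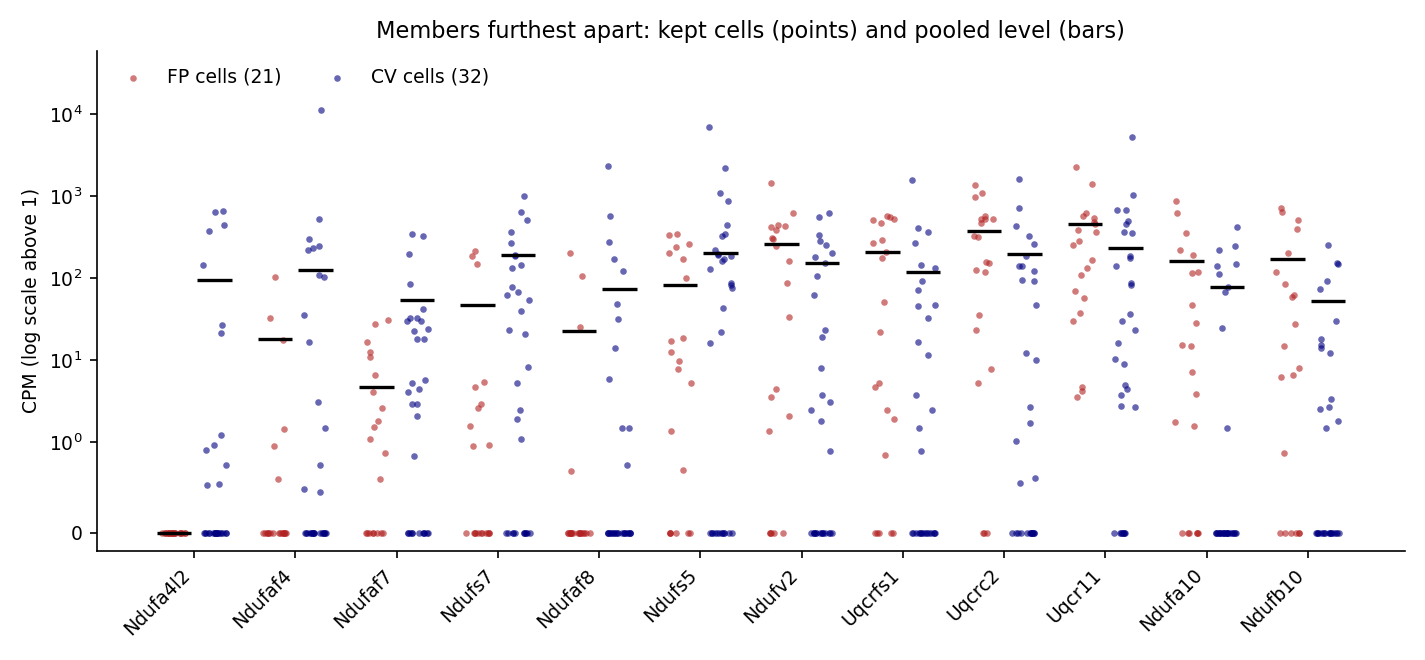
Each point is a kept cell and each bar is the pooled level of 21 FP cells (red) or 32 CV cells (blue), in CPM on a scale that is logarithmic above 1. The 12 members shown have the largest differences among nuclear members with at least 50 CPM, and a count in 25% of cells, in the higher library, and are ordered from higher in CV at the left to higher in FP at the right. Cells of both papillae overlap for all 12 genes, and for Ndufa4l2 all FP cells lie at 0, as do many CV cells.

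Nuclear subunits were detected widely but not in every cell. Of 78 subunits, the kept FP cells had counts for a median of 65 (28 to 73) and the kept CV cells for a median of 54.5 (7 to 74), in libraries of unequal depth. After thinning to 71770 counts the medians were 53 in 21 FP cells and 52 in 26 CV cells, against 65 and 64.5 unthinned in the same cells. In these cells the medians of the papillae were thus close both before and after thinning, with 6 CV cells left out.

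Of the 13 mitochondrial mRNAs, 12 were within 2-fold between the papillae, and MT-Nd6 was not. By gene, MT-Co1, the catalytic subunit of complex IV, stood at 25023 CPM in FP and 26481 in CV. MT-Co2 stood at 17683 and 21134 CPM and MT-Co3 at 16432 and 15826 CPM. MT-Atp6, the proton channel of ATP synthase, stood at 18500 and 20410 CPM, and MT-Atp8 at 383 and 483 CPM. MT-Cytb, the complex III subunit, stood at 13155 and 12717 CPM.

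The 7 complex I subunits of the mitochondrial genome followed. MT-Nd4 stood at 9256 CPM in FP and 9293 in CV, and MT-Nd1 at 6503 and 6504 CPM. MT-Nd2 stood at 4006 and 3647 CPM, MT-Nd5 at 3573 and 2847 CPM (log2 0.33), MT-Nd3 at 3066 and 3706 CPM, and MT-Nd4l at 1454 and 1568 CPM. All of these 6 were within 2-fold in kept cells. Per kilobase, MT-Atp6 (27166 CPM in FP, 29971 in CV) and MT-Co2 (25853 and 30898 CPM) led, and MT-Nd6 was last (32.2 and 171 CPM).

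MT-Nd6 was the 1 mitochondrial mRNA past 2-fold, at 16.7 CPM in FP and 88.5 CPM in CV (log2 -1.88). It is the single mRNA of the light strand, and the sources used here do not say whether the counting used strand. Its counts therefore cannot be told apart from reads of the opposite strand at the same place. It reached 50 CPM in 1 of 21 FP and 12 of 32 CV cells. Leaving out the highest cell of each library gave -1.83, and the difference was -1.70 with cells under 30% mitochondrial counts.

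MT-Atp8 and MT-Atp6 are read from one transcript, as are MT-Nd4l and MT-Nd4. Per kilobase, MT-Atp6 exceeded MT-Atp8 14.5-fold in FP and 12.7-fold in CV, and MT-Nd4 exceeded MT-Nd4l 1.37-fold and 1.28-fold. The sources used here do not say how reads over the printed overlaps were assigned. MT-Rnr2, the large ribosomal RNA, stood at 11163 CPM in FP and 11007 in CV, and MT-Rnr1, the small one, at 5007 and 2958 CPM (log2 0.76). The ratio of MT-Rnr2 to MT-Rnr1 was 2.23 in FP and 3.72 in CV, and 1.81 in the CV barcodes with over 60% mitochondrial counts that were not kept. The 22 tRNA genes had 423 counts in FP and 766 in CV.

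**Figure D5:**
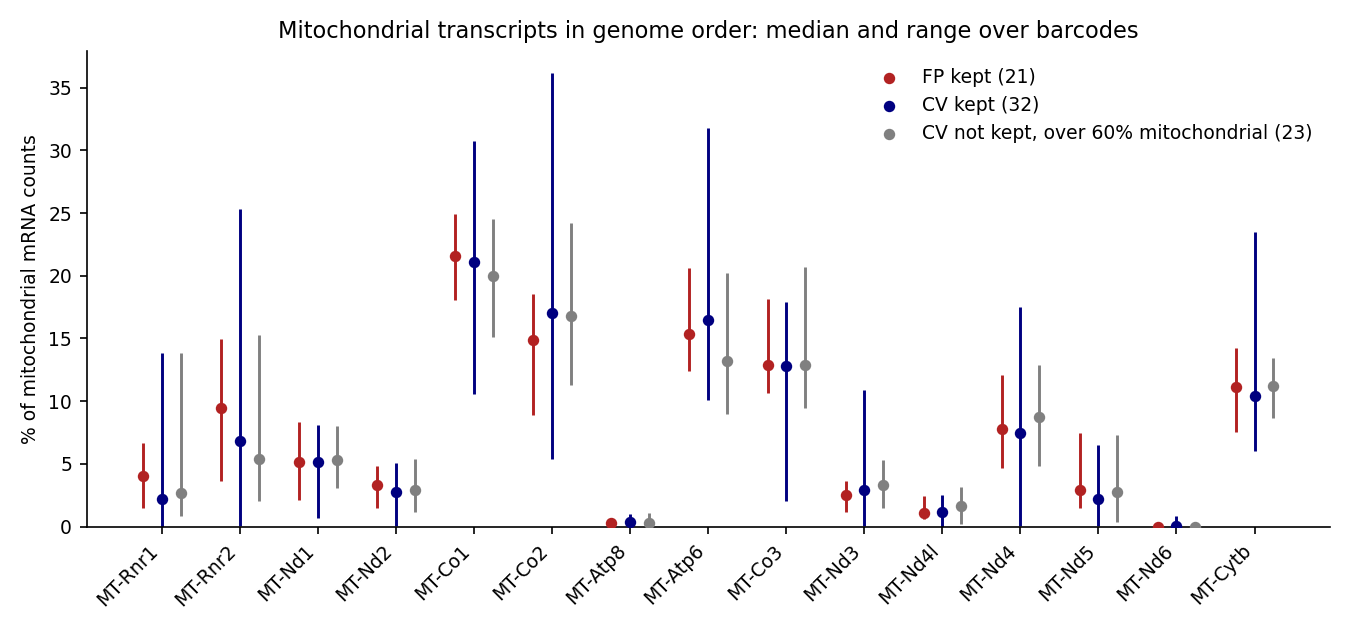
For each mitochondrial gene, in genome order, the point gives the median over barcodes and the line the lowest to highest value, as a percentage of the mitochondrial mRNA counts of that barcode. FP kept cells are red, CV kept cells are blue and CV barcodes over 60% mitochondrial that were not kept are grey, and the medians lie close together for most genes. For MT-Co1 the medians are 21.6, 21.1 and 19.97%.

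The share of each mRNA among mitochondrial mRNA counts was also compared between barcodes with very different ratios to nuclear counts. MT-Co1 made up a median of 21.6% of the mitochondrial mRNA counts in kept FP cells (18.1 to 24.9), 21.1% in kept CV cells (10.6 to 30.7) and 19.97% in the 23 CV barcodes over 60% mitochondrial that were not kept (15.1 to 24.5). MT-Cytb made up 11.1, 10.4 and 11.2%, and MT-Atp6 made up 15.3, 16.5 and 13.2%. MT-Nd4 made up 7.81, 7.44 and 8.76%. For MT-Co1, the differences between these medians were smaller than the spread between barcodes of 1 kind.

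Genes of the pathway outside the naming rule were read from lists. Among all genes that reached 10 CPM in FP or in CV, 17% were called higher in FP and 21% higher in CV. Complex II, which feeds electrons from succinate, had 1 of 4 subunits past 2-fold, Sdhc at 52.4 CPM in FP and 130 CPM in CV (log2 -1.17), and Sdha, Sdhb and Sdhd were within 2-fold. Cytochrome c itself, Cycs, stood at 231 and 298 CPM, and Cyc1 of complex III at 109 and 158 CPM, both within 2-fold. Of 6 carriers and coupling factors, Ckmt1, the mitochondrial creatine kinase, was the 1 called, at 49.1 CPM in FP and 159 CPM in CV (log2 -1.51). Slc25a4, Slc25a5, Slc25a3, Ucp2 and the ATP synthase inhibitor Atpif1 were within 2-fold.

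Of 13 genes for mitochondrial transcription and biogenesis that passed the level, 1 was called higher in FP and 4 were called higher in CV. The shares over all genes at that level were 17% and 21%. Gabpa, the DNA-binding subunit of GABP, stood at 26.6 CPM in FP and 4.67 CPM in CV, from 2 FP and 5 CV cells. Ppargc1a, the coactivator PGC-1α, stood at 0.49 and 25.3 CPM (log2 -1.75), with 50 CPM reached in 0 FP and 4 CV cells. Pprc1, Mterf1a and Tfb2m were the other 3 in CV, and Tfam, the packaging factor of mitochondrial DNA, stood at 30.3 and 23.6 CPM. Without the highest cell of each library, the log2 difference of Mterf1a went from -1.18 to -0.54 and that of Gabpa from 1.32 to 0.99. Both calls ended there, while Ppargc1a, Pprc1 and Tfb2m stayed past 2-fold, at -1.38, -1.11 and -1.09. Pprc1 was detected in 1 FP and 4 CV cells, and leaving out its highest cells set FP to 0 CPM. Tfb2m was detected in 7 FP and 6 CV cells, so these 2 calls rested on few cells.

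A list of genes for the use of glucose, pyruvate and lactate held hexokinases, pyruvate kinase, lactate dehydrogenases, pyruvate dehydrogenase with its kinases, and lactate carriers. Of 8 that passed the level, 4 were called higher in CV and 0 in FP, with a median log2 difference of -1.08. All genes at that level gave 21% higher in CV and 17% higher in FP, with a median of -0.05. Ldhb, which turns lactate into pyruvate, stood at 2.08 CPM in FP and 79.0 CPM in CV (log2 -2.88), with 50 CPM reached in 0 FP and 7 CV cells. Pdha1, a subunit of pyruvate dehydrogenase, stood at 30.998 and 120 CPM, its kinase Pdk2 at 17.3 and 56.5 CPM, and the lactate carrier Slc16a3 at 33.3 and 128 CPM. The other 4 were within 2-fold: Pkm, the pyruvate kinase gene, at 271 and 504 CPM (log2 -0.87), Ldha, which turns pyruvate into lactate, at 85.8 and 152 CPM (log2 -0.76), the hexokinase Hk1 at 98.3 and 110 CPM (log2 -0.15), and Pdk1 at 43.9 and 32.8 CPM (log2 0.33). The summed level of the list was 584 CPM in FP and 1182 CPM in CV. These too are values of 1 library per papilla.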

How the data were processed

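There were 2 samples, 1 library of sorted GFP-positive cells from each papilla, grouped by the tissue label. The values deposited by the authors are raw counts of each gene in each barcode, as their whole numbers and unequal totals show. Per the submitters' processing notes cutadapt 2.10, Bowtie2 2.3.4.1 and Seurat 2.3.4 were used with build mm10. The sources used here do not say whether copies of a molecule were collapsed, so intervals may be too narrow.

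Counts of kept cells were summed per library and scaled to CPM. Differences are log2((FP CPM + 10)/(CV CPM + 10)), which understates changes of low genes. A gene listed in 1 table only was taken as 0 in the other. Sums carry exact Poisson intervals. The stated mitochondrial and ribosomal RNA limits could be read in several ways and were not applied. No doublet caller was run, and the hashtag libraries were not analysed here. The 95% intervals and the floor of 3 counts cover counting error only. Python 3.11.15, numpy 2.4.6, pandas 2.3.3 and scipy 1.17.1 were used, and the scripts were tested on simulated data. Positions come from GENCODE release M21 on mm10, and exon lengths (merged over annotated transcripts) matched all 134 members.

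Members and lists were chosen with earlier results of these data known. Named genes were the mitochondrial mRNAs and ribosomal RNAs, the 2 members of highest mean CPM in each group, tissue-restricted isoforms with their partners, and the 6 largest differences in each direction among nuclear members with at least 50 CPM and detection in 25% of cells of the higher library. In addition, 10 planned and 5 added alternatives were computed. The limits of 30% mitochondrial counts and of 20 in the ratio, and the mitochondrial bands, were chosen after the data were seen.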

Additional observations from a re-analysis of the deposited data

How the results depend on the processing

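Of the results by papilla, the median log2 difference of the nuclear members stayed above 0 under all 15 alternatives (0.011 to 0.25), and no log2 value of the nuclear sum turned negative. The log2 difference of the nuclear sum was 0.05 with all kept cells. It moved to 0.045 with CPM over counts outside mitochondrial and ribosomal RNA genes, 0.12 with the mean per cell, 0.018 without the cell of highest total in each library, 0.11 with thinned cells, 0.064 with structural subunits only, 0.038 without a run of adjoining CV barcode numbers, 0.046 in cells of more than 150000 counts and 0.045 in cells with a ratio under 20. The log2 difference of the mitochondrial mRNAs (-0.07) moved to -0.84 with no Gnat3 limit, -0.051 with at most 60% mitochondrial counts, -0.076 over outside counts, -0.18 with the mean per cell, -0.083 without the highest cells, -0.36 with thinned cells, -0.076 without the run of barcodes, -0.043 in cells of more than 150000 counts and -0.029 in cells with a ratio under 20, and it reversed to 0.00035 with cells under 30% mitochondrial counts. The median over members moved from 0.07 to 0.25 with the mean per cell, 0.011 without the highest cells and 0.14 with thinned cells. The count of members higher in FP (4) became 2 with no Gnat3 limit, 18 with the mean per cell, 12 with thinned cells, 1 with subunits only and 1 at 100 CPM or more, and the count higher in CV (7) became 3 in each of the last pair, since fewer genes were counted there. With the mean per cell, 10 were higher in CV. All genes gave 25.5% higher in FP with the mean per cell (members 19.8%), 22.7% with thinned cells (members 13%) and 16.8% with no Gnat3 limit (members 2.15%), against 17% with pooled counts (members 4.35%). The cause of the other moves was not tested. The median ratio per kept FP cell (4.77) moved to 4.97 with subunits only, 4.70 under 30% mitochondrial counts and 4.70 with a ratio under 20. That of CV (6.57) moved to 11.1 with no Gnat3 limit, 7.70 with thinned cells, 4.89 under 30% and 5.25 with a ratio under 20. The other values stayed within the limit set for a change, and a base 3 logarithm for Gnat3 kept the same cells. No paired analysis was possible because each papilla had 1 library. The run of barcodes, the limits of 30%, 150000 counts and 100 CPM, and the ratio limit were chosen after seeing the data.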
